A study of Mus musculus with 8 samples.

Results

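CUT&Tag uses an antibody to bring a transposase to its target, so that DNA near the target is tagged and sequenced. Here it was applied to mouse embryonic fibroblasts (MEFs) at day 5 of reprogramming, in an arm given Oct4 with wild-type Nanog (NanogWT, labelled Nanog+Oct4) and an arm given Oct4 with NanogBiD (labelled NanogN70+Oct4), a fusion of Nanog with the part of SS18 that binds BRG1. Per the methods of the study, both arms were MEFs from mid-gestation embryos of OG2 males, which carry a GFP reporter driven by Pou5f1 (Oct4) sequence, and females of the 129 strain. Both received the factors by retrovirus, and both were kept in the same reprogramming medium. FLAG-tagged NANOG, BRG1, H3K27ac and H3K4me1 were profiled in each arm, which gave 8 groups with 1 merged library each and no replicates to compare.

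The regions described here had a called peak of FLAG-tagged NANOG in NanogWT alone, had no BRG1 peak, and carried H3K4me1 in NanogWT that was not called in NanogBiD. FLAG and BRG1 peaks of both arms were merged into 93352 regions wherever they overlapped or touched. Of these, 13862 held a FLAG peak in NanogWT and none in NanogBiD, and 10682 of those held no BRG1 peak in either arm. From the latter, 2878 regions that overlapped a NanogWT H3K4me1 peak and no NanogBiD H3K4me1 peak were taken as members. The members made up 3.08% of all merged regions and 26.9% of the NanogWT-only FLAG regions without BRG1. The rest of that pool served for comparison, namely 1961 regions with H3K4me1 in both arms (H3K4me1 kept), 5357 with H3K4me1 in neither arm (no H3K4me1) and 486 with H3K4me1 in NanogBiD alone. The members were thus chosen by called FLAG, BRG1 and H3K4me1 peaks, and the values of these targets are given as descriptions only.

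NANOG is a homeodomain transcription factor of pluripotent cells, and BRG1 (Smarca4) is the ATPase of the BAF complex, which moves nucleosomes. H3K4me1 is the histone mark typical of enhancers, including those that are primed but not active, and H3K27ac is added at active enhancers and promoters. Fibroblast enhancers are rich in binding motifs of AP-1, TEAD and RUNX factors, whereas OCT and SOX motifs are typical of the enhancers of pluripotent cells.

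Sequence was not used to choose the members. Of the motifs searched, those of TEAD (GGAATG) and AP-1 (TGAGTCA or TGACTCA) differed most in share between the members' FLAG summits and sequence 1 kb away. The 3 strongest members with each motif within 50 bp of the FLAG summit are shown to let the motif be seen in place. They are printed 5′ to 3′ on the plus strand of mm10 with the motif, on either strand, in capitals. The name is that of the nearest start site of a protein-coding gene.
Nhlrc3 (TEAD; chr3:53416215-53416315, intergenic): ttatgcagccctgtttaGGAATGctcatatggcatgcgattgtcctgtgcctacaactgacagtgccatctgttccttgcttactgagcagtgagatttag
Alox12b (TEAD; chr11:69164695-69164795, intron): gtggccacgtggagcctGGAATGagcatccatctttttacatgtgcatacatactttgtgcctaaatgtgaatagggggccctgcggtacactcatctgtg
Shc3 (TEAD; chr13:51505941-51506041, intron): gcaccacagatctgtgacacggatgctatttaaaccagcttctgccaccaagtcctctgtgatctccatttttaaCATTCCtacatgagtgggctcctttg
Mroh9 (AP-1; chr1:163182021-163182121, intergenic): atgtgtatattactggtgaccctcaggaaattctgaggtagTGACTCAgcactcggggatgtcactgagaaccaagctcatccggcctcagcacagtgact
Vps8 (AP-1; chr16:21542918-21543018, intron): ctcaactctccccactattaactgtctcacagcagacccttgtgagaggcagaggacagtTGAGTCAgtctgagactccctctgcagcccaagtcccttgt
Xrra1 (AP-1; chr7:99909456-99909556, intron): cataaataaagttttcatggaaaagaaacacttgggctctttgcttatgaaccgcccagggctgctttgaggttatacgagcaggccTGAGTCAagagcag
All 6 lay outside promoters, between 3.34 kb (Xrra1) and 96.4 kb (Mroh9) from the named start site. Their NanogWT FLAG summits were between 12 and 20 tags high, and their NanogWT H3K4me1 summits between 15 and 21 tags. Shc3 and Xrra1 had an H3K27ac peak in NanogWT alone, with summits of 13 and 11 tags, and Mroh9 had one in both arms, with 16 tags in NanogWT and 11 in NanogBiD. The other 3 had no H3K27ac peak in either arm.

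The members were weakly bound and weakly marked sites. Summit height, the number of tags piled up at the top of a peak and not scaled to depth, had a median of 11 for NanogWT FLAG (range 6 to 43), against 14 over all 58326 regions with a NanogWT FLAG peak. For NanogWT H3K4me1 the median was 14 (range 8 to 46), against 16 over all such regions with that mark. The comparison class with H3K4me1 kept had the same median FLAG height of 11 tags, and its median H3K4me1 height was 15 tags in NanogWT and 13 in NanogBiD. FLAG summits were thus alike in height at members and at regions that kept the mark, while NanogWT H3K4me1 summits were lower at the members.

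**Figure D1:**
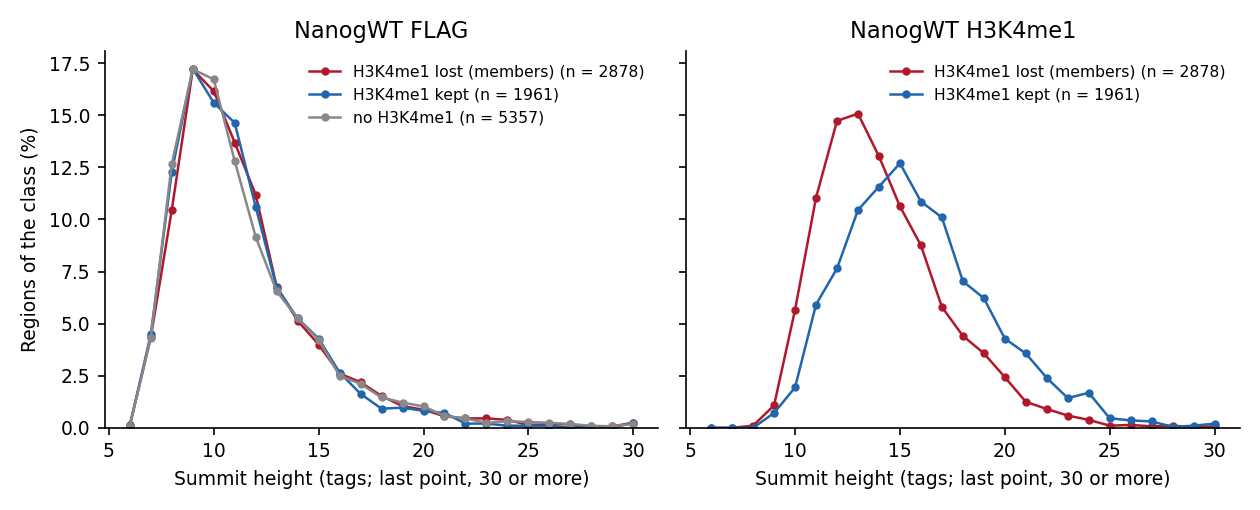
Share of regions (%) at each NanogWT summit height (tags) for FLAG, left, and H3K4me1, right, by class. The FLAG curves of the 3 classes lie on each other with medians of 10 or 11 tags, while the H3K4me1 curve of the 2878 members (median 14 tags) lies to the left of that of the 1961 regions that kept the mark (median 15 tags).

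Many members lay close to the limit of peak calling, where the lowest score in any list was 50 (the score is −10 log10 of the peak caller's p). A score under 60 was found for the FLAG peak of 761 members and for the H3K4me1 peak of 616, and 1198 members (41.6%) had at least 1 of these. Just outside the rule lay 305 regions that missed it only through a NanogBiD FLAG peak with a score under 60, and 418 that missed it only through such an H3K4me1 peak. Median H3K4me1 heights of the latter were 15 (NanogWT) and 11 tags (NanogBiD). Raising the score limit to 100 in every list gave 1536 members, of which only 280 overlapped the 2878. Of the 2878 members, only 280 (9.73%) had a score of at least 100 for both FLAG and H3K4me1. Regions outside the 2878 could enter, since a stricter limit also turns weak NanogBiD peaks into absent ones. Membership is therefore a statement about called peaks and not about the absence of binding or of the mark.

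By the rule, each member overlapped an H3K4me1 peak. The FLAG summit lay inside that peak at 90.0% of the members, against 95.3% of the regions that kept H3K4me1, and the distance between both summits had a median of 158 bp. Members had a median width of 685 bp and rested on 2865 distinct H3K4me1 peaks, with 25 members sharing a peak with another. The nearest NanogBiD peak was 8.82 kb away for FLAG and 11.4 kb away for H3K4me1 (medians), and 236 and 214 members had such a peak within 1 kb. The nearest BRG1 peak was 22.4 kb away in NanogWT and 12.8 kb away in NanogBiD.

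Loss of the H3K4me1 call, which the rule used, was common and is described here without a test. By the rule itself, 59.5% of the 4839 NanogWT-only FLAG regions without BRG1 that carried H3K4me1 in NanogWT had no NanogBiD peak, against a background of 27.7% over all merged regions with the mark (13.9% of all merged regions, marked or not). FLAG in NanogWT alone, which the rule also used, was found at 14.8% of all merged regions. The share was 43.6% at the regions with FLAG in both arms and no BRG1, and 45.6% where FLAG and BRG1 were both confined to NanogWT. At the 24442 NanogWT H3K4me1 peaks that touched no FLAG or BRG1 region it was 67.6%. The unit of this last share was the whole peak, and whole peaks of the pool of the members gave 58.1%. The NanogBiD H3K4me1 list was also the shorter of the pair, with 57156 peaks against 72242.

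The loss depended on how tall the NanogWT H3K4me1 peak was. In the pool of the members it was 74.7% for summits of 8 to 12 tags, 62.1% for 13 to 15, 49.2% for 16 to 19 and 37.6% for 20 or more. For H3K4me1 peaks without FLAG or BRG1 the same bands gave 79.7%, 68.2%, 52.6% and 36.3%. The first of these counts took the region as its unit and the second the whole H3K4me1 peak. With the whole peak as the unit in both, the pool of the members gave 74.6%, 60.9%, 47.5% and 33.05%. The rule used these calls, so the values are a description and were not tested. Counted by region, the pool lay above regions with FLAG in both arms and no BRG1 in every band (58.2%, 44.1%, 34.4% and 26.9% there). Where FLAG and BRG1 were both confined to NanogWT the bands gave 72.9%, 60.4%, 41.9% and 27.1%, close to the pool in the lower bands.

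**Figure D2:**
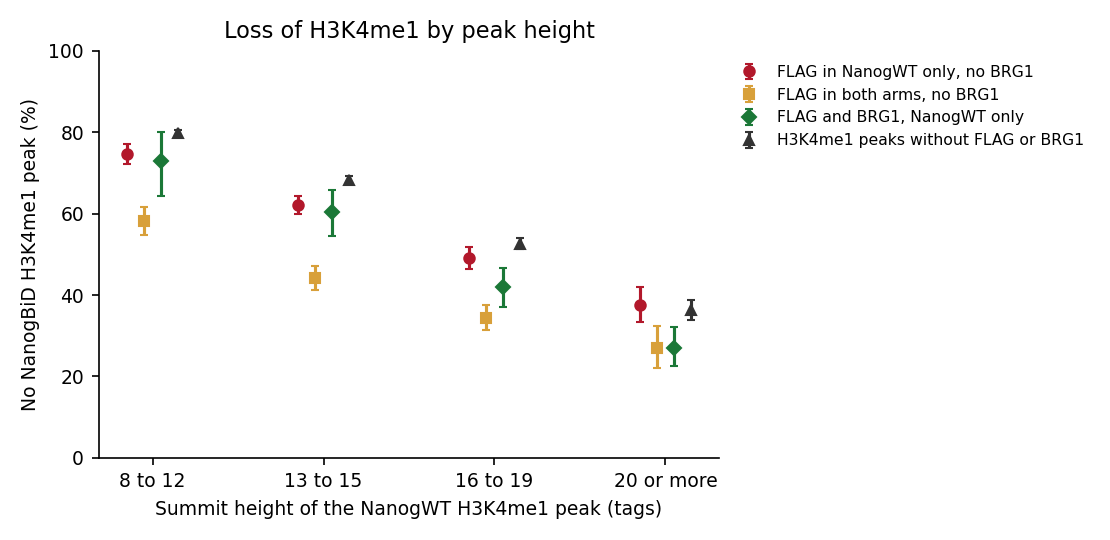
Share of regions or peaks without a NanogBiD H3K4me1 peak (%) by the summit height of the NanogWT H3K4me1 peak (tags), with Wilson 95% intervals (counting error only). In the pool from which the members come the share fell from 74.7% to 37.6% with height, close to the fall from 79.7% to 36.3% at H3K4me1 peaks without FLAG or BRG1.

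H3K27ac was read from libraries that the rule did not use, although the sources used here do not say whether the libraries of an arm came from the same cultures. It was present at a minority of members in NanogWT, and most of these had none in NanogBiD. In NanogWT 651 members overlapped an H3K27ac peak, which was 22.6% (Wilson 95% interval 21.1 to 24.2), and in NanogBiD 216 did, which was 7.51% (6.60 to 8.53). The peak was lost, present in NanogWT and not called in NanogBiD, at 513 members or 17.8% (16.5 to 19.3), against 5.25% of all merged regions. It was gained at 78 members or 2.71% (2.18 to 3.37), against 13.1% of all merged regions. This gained share became 7.03% with windows of 100 bp either side of each summit and 4.56% with the 20000 highest-scoring peaks, and 1.62% when both lists of a target were held to equal length. A further 138 members had the peak in both arms and 2149 (74.7%) had it in neither.

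Over all merged regions H3K27ac was thus more often gained than lost, and among the members more often lost than gained. Loss also exceeded gain in the other classes with FLAG in NanogWT alone, at 17.3% against 8.98% where H3K4me1 was kept, 6.403% against 1.61% without H3K4me1, 8.23% against 3.09% where H3K4me1 was gained, and 32.6% against 4.90% where BRG1 was also confined to NanogWT. More members lost than gained it on each of the 19 autosomes, whereas on X none lost it and 2 gained it. Leaving out any chromosome gave a lost share between 17.6% and 18.3%, and the share of a single autosome lay between 10.9% and 23.4%. The NanogBiD H3K27ac list was the longer of the pair, with 42598 peaks against 35452. The interval of a share covers counting error only, and the spread between cultures cannot be measured with 1 library per group.

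**Figure D3:**
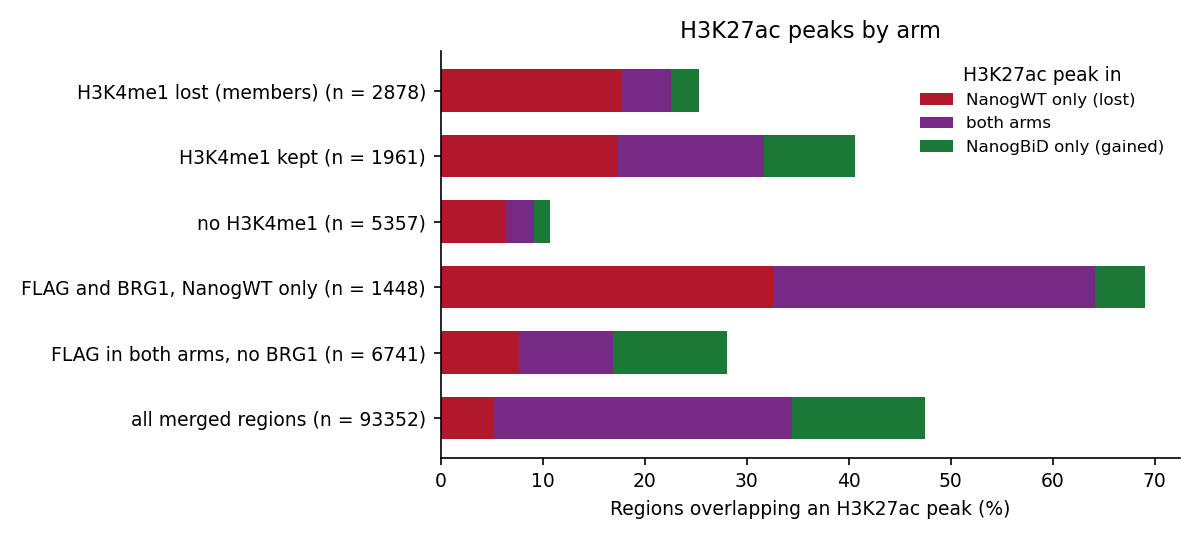
Share of regions (%) that overlap an H3K27ac peak in NanogWT only, in both arms, or in NanogBiD only, by class of region. The members show 17.8% lost and 2.71% gained, whereas all 93352 merged regions show 5.25% lost and 13.1% gained.

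Over all members, the share that lost H3K27ac was not distinguishable from that of the regions that kept H3K4me1. It was 17.8% against 17.3%, a difference of 0.54 percentage points (Newcombe 95% interval −1.67 to 2.70). At promoters the members were higher, by 5.67 points (0.34 to 11.04), and away from promoters the difference was −0.52 points (−2.97 to 1.87). The classes also differed in how many carried H3K27ac in NanogWT and how many of those retained it. In NanogWT 31.7% of the regions that kept H3K4me1 had an H3K27ac peak, 9.05 points above the members (the members minus that class, −9.05, interval −11.6 to −6.49; −9.59 to −8.58 with any chromosome left out). With summits of at least 15 tags in every list this difference was −17.5 points. Among regions with a NanogWT H3K27ac peak, 78.8% of the members (75.5 to 81.8) and 54.6% of the regions that kept H3K4me1 (50.7 to 58.5) had none in NanogBiD, a difference of 24.2 points (19.1 to 29.1). Over all merged regions with a NanogWT H3K27ac peak the share lost was 15.3%. Gain was rarer at members, 3.50% of those without a NanogWT H3K27ac peak against 13.1% of the class that kept H3K4me1 and 19.9% over all merged regions, but it was 1.77% of the regions without H3K4me1, below the members by 1.74 points (0.94 to 2.65).

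Against the regions with no H3K4me1 in either arm the order was different. Only 9.17% of these had H3K27ac in NanogWT, which put the members 13.5 points higher (11.8 to 15.2). Of those that had it, 69.9% lost it, 8.94 points below the members (3.84 to 14.1). The interval of this last difference included 0 under 3 alternatives, at −0.14 points (−9.05 to 7.94) when each list was held to its 20000 highest-scoring peaks, 0.92 (−4.01 to 5.69) with windows around the summits and 4.18 (−1.18 to 9.73) when an absent peak had to be absent within 1 kb. It was larger, 15.5 points (10.5 to 20.4), when an H3K27ac peak within 1 kb counted as present. It also differed by place. Away from promoters the share lost was 80.9% in members and 81.3% in regions without H3K4me1, a difference of −0.40 points (−5.54 to 5.01), and at promoters it was 68.5% and 42.0%, a difference of 26.5 points (14.2 to 37.6). The gap to the class that kept H3K4me1 was present in both places, at 20.5 points away from promoters (14.9 to 26.0) and 30.7 points at promoters (18.8 to 41.4).

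The height of the H3K27ac peak also mattered. Members with a NanogWT H3K27ac summit of 7 to 11 tags lost it in 87.4% of 261 cases, those with 12 to 15 tags in 75.5% of 245, and those with 16 or more in 69.0% of 145. In the same bands the regions that kept H3K4me1 lost it in 70.2%, 52.3% and 29.7%, and all merged regions in 36.2%, 22.7% and 5.58%. The members lay above both in every band. Regions without H3K4me1 gave 83.04%, 77.8% and 49.1%, so that members stood clear of them only in the tallest band. At the 138 members with H3K27ac in both arms, the median change of its summit from NanogWT to NanogBiD was −0.14 on the log2 scale, against −0.09 at the 282 such regions that kept H3K4me1 and 0.08 at the 27212 such merged regions. Of these 138 members, 84 were higher in NanogWT, 33 higher in NanogBiD and 21 equal, and of the 282 regions 148 were higher in NanogWT and 98 in NanogBiD.

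**Figure D4:**
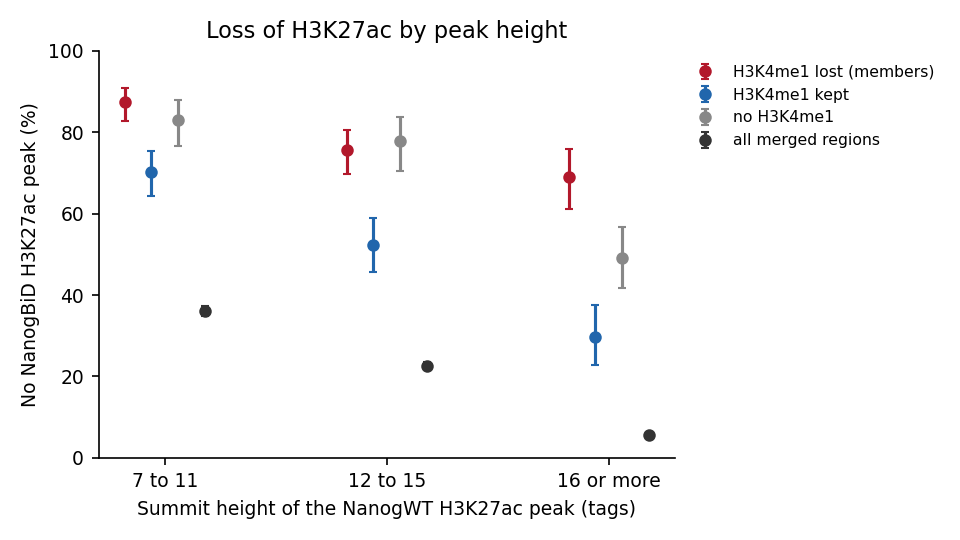
Share of regions with a NanogWT H3K27ac peak that had no NanogBiD H3K27ac peak (%), by summit height of the NanogWT peak (tags) and class, with Wilson 95% intervals (counting error only). In the tallest band, 16 tags or more, 69.0% of members lost the peak against 29.7% of regions that kept H3K4me1 and 5.58% of all merged regions.

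Members were also set beside H3K4me1 peaks that lost the mark but touched no FLAG or BRG1 region. Here the H3K4me1 peak was the unit, and 2788 peaks of members with no NanogBiD H3K4me1 peak anywhere along their length entered, since 77 of the 2865 reached one outside the region. H3K27ac overlapped 22.8% of the members' peaks in NanogWT and 6.98% of the 16524 lost peaks without FLAG or BRG1, a difference of 15.8 points (14.3 to 17.5). Where H3K27ac was present, 78.3% and 70.6% lost it, a difference of 7.70 points (3.47 to 11.8). For H3K4me1 summits of 8 to 12, 13 to 15 and 16 or more tags the differences were 7.37 (−1.70 to 15.3), 8.54 (1.66 to 14.96) and 7.86 points (1.02 to 14.4), and the first of these intervals includes 0. NANOG peaks thus marked the H3K4me1 peaks more often acetylated in NanogWT, and H3K27ac was lost at most acetylated peaks that lost H3K4me1, with or without NANOG. At H3K4me1 peaks without FLAG or BRG1 that kept H3K4me1, 44.1% of the acetylated ones lost H3K27ac.

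Among the members, H3K27ac loss was more frequent at taller FLAG and H3K4me1 peaks. It was 12.97%, 16.6% and 25.5% for FLAG summits of 6 to 9, 10 to 12 and 13 or more tags. For H3K4me1 summits of 8 to 12, 13 to 15 and 16 or more tags it was 10.7%, 17.8% and 26.0%. Of the members with a NanogWT H3K27ac peak, however, the shares lost in these H3K4me1 bands were 82.0%, 80.6% and 75.9%. Gain lay between 2.05% and 3.50% in these bands. In the same H3K4me1 bands, regions that kept the mark lost H3K27ac in 11.3%, 13.95% and 21.6%. The members minus that class gave −0.67 points (−5.02 to 3.04), 3.90 (0.37 to 7.26) and 4.35 (0.40 to 8.32). The intervals of the upper bands began only just above 0 and cover counting error only.

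The 6 members ranked highest by the weaker of their FLAG and H3K4me1 scores were all outside promoters. The highest, at chr19:59620013-59621159, lay 158 kb from Emx2, which encodes a homeobox factor of forebrain and urogenital development. It had 14 tags for FLAG and 14 for H3K4me1 in NanogWT, and no H3K27ac in either arm. Further members of this set lay 98.0 kb from Adck1 (13 tags for FLAG and 18 for H3K4me1), in an intron near Lama3, a laminin chain of basement membranes (26 and 14), 45.2 kb from Adra2a, the alpha-2A adrenergic receptor (21 and 16), and in an intron near B3galt5, a galactosyltransferase (15 and 16). The member near Adck1 had H3K27ac in NanogWT alone, with 15 tags.

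Members that lost H3K27ac with the highest scores lay near 4430402I18Rik, Zfp64 and Zeb2. The member at chr2:168951225-168952590, in an intron 3.45 kb from the start of the zinc finger gene Zfp64, had an H3K27ac summit of 40 tags in NanogWT and no peak in NanogBiD, with 19 tags for FLAG and 16 for H3K4me1. That at chr19:28962677-28963642, at the promoter of 4430402I18Rik, had 19 tags of H3K27ac in NanogWT. That at chr2:46524435-46524866 had 15 tags and its nearest start site was that of Zeb2, a repressor of epithelial genes, 1410 kb away. The 3 gained members with the highest scores were all at promoters, of Clcn5 (18 tags of H3K27ac in NanogBiD), which encodes a chloride and proton exchanger, Tmem200a (12 tags) and Zfp518b (22 tags). Promoters held 16 of the 78 gained members (20.5%) and 76 of the 513 lost ones (14.8%), a difference of 5.70 points whose interval includes 0 (−2.49 to 16.3).

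By position, the members were mostly intronic or intergenic. The FLAG summit lay in an intron at 1594 members (55.4%), between genes at 1154 (40.1%), in an untranslated region at 51, in a coding exon at 22 and in a noncoding exon at 57. A region within 2 kb of a transcription start site was counted as a promoter, and 373 members were, or 12.96% (11.8 to 14.2). This was 7.85 points below the regions that kept H3K4me1, of which 20.8% were promoters (interval of the difference −10.04 to −5.69), and within 0.75 points (−0.73 to 2.29) of the 12.2% of regions without H3K4me1. The median distance to the nearest protein-coding start site was 35.2 kb in members, 28.2 kb where H3K4me1 was kept and 40.2 kb where it was absent. Median GC content within 150 bp of the summit ran in the opposite order, with 45.2% in members, 48.5% where the mark was kept and 42.5% where it was absent. Repeat sequence at the summit ran in the same order as distance, with 14.3%, 10.5% and 17.2%.

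Members were spread over all chromosomes in proportion to NANOG peaks, except on X. They made up between 4.34% and 5.69% of NanogWT FLAG regions on the autosomes and 1.10% on X, where there were 13. H3K4me1 peaks as a whole were sparse on X, with 0.854% of the NanogWT list and 0.868% of the NanogBiD list there, against 2.02% of the NanogWT FLAG list. Another region of the same class lay within 20 kb of 259 members, of 5.41% of regions that kept H3K4me1 and of 13.5% of those without it.

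Motifs of TEAD, AP-1 and RUNX factors were more frequent at the members' FLAG summits than 1 kb away. Each motif was counted on both strands within 50 bp of the summit and in windows of equal size 1 kb downstream. TEAD matches (GGAATG) were found at 234 members, 8.13% (7.19 to 9.19), against 5.00% downstream, a difference of 3.13 points (1.85 to 4.42). AP-1 matches (TGAGTCA or TGACTCA) were found at 126 members, 4.38% (3.69 to 5.19), against 1.56% downstream, a difference of 2.81 points (1.95 to 3.72). RUNX matches (TGTGGTT) were found at 97 members, 3.37%, against 1.81% downstream (difference 1.56 points, 0.75 to 2.404). At regions that kept H3K4me1 the RUNX shares were 2.60% at the summit and 2.50% downstream, at those without H3K4me1 3.70% and 2.17%, and at those with FLAG in both arms and no BRG1 3.69% and 2.21%. The share with each motif over all summits of NanogWT FLAG regions was 7.41% for TEAD, 5.84% for AP-1 and 3.16% for RUNX.

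Of the pluripotency motifs, only the OCT octamer was above the flanking sequence. The octamer (ATGCAAAT) was found at 35 members, 1.22% against 0.521% downstream (difference 0.69 points, 0.22 to 1.21). SOX motifs (ACAATGG or ACAAAGG) were found at 3.75% against 3.20%, and the homeodomain core TAATGG, which NANOG prefers, at 3.996% against 4.17%, and both differences had intervals that include 0 (−0.39 to 1.51 and −1.20 to 0.85). All NanogWT FLAG regions held these motifs at 1.81% (OCT), 4.14% (SOX) and 4.995% (TAATGG) of summits. Regions with FLAG in both arms and no BRG1 held TAATGG at 6.01% of summits, 2.01 points above the members (members minus that class −2.01, −2.90 to −1.06), and OCT and SOX motifs also lay below that class, by −0.74 (−1.24 to −0.18) and −0.96 points (−1.79 to −0.07). A match to CTCF was found at 4 members. The absence of a match says only that these letters are not in the window.

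No motif separated the members from the regions that kept H3K4me1 or had none. For the 7 motifs against these 2 classes, all 14 differences had intervals that include 0, the widest being for TEAD, 0.53 points (−1.04 to 2.05) against the first class and −0.95 (−2.18 to 0.34) against the second. At least 1 of the 7 motifs was found at 645 members (22.4%), and TEAD and AP-1 together at 9. The share with TEAD was 7.80% among the 513 members that lost H3K27ac and 8.10% among the 2149 without H3K27ac, and the share with AP-1 was 4.09% and 4.42%.

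**Figure D5:**
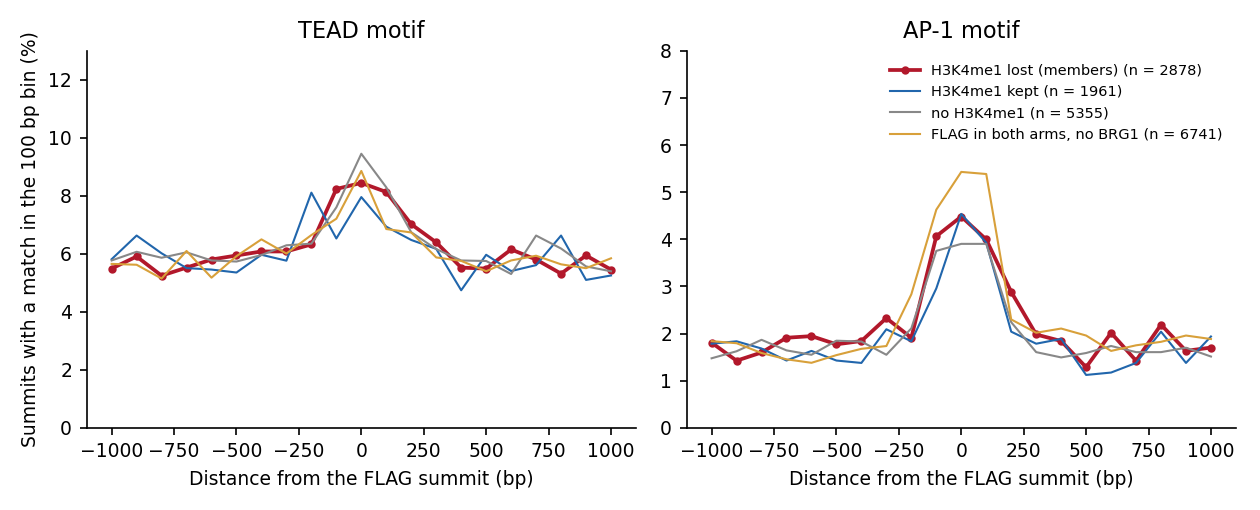
Share of FLAG summits with a TEAD or an AP-1 match (%) in bins of 100 bp, by distance from the summit (bp), for the members and 3 other classes. At the members the central bins hold TEAD at 8.44% and AP-1 at 4.48%, against 5.49% and 1.81% at −1000 bp, and the other classes show a rise at the same place.

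Few genes collected several members. The 2878 members had 2136 different nearest protein-coding genes, of which 1622 were nearest to 1 member and 160 to 3 or more. Within a gene body and 20 kb either side, the 5 genes with most members were Gm20388 (8), Col23a1, Fgfr2, Gm37240 and Iqschfp (5 each, tied with Schip1 and Tenm2). Gm20388, Gm37240, Iqschfp and the annotated Fgfr2 are very long gene models that run over other genes, with spans of 4475, 1431, 774 and 3001 kb, so long spans bear on these counts. Col23a1, a transmembrane collagen, held 5 intronic members within 334 kb, out of 18 NanogWT FLAG regions, with FLAG summits of 8, 11, 9, 11 and 8 tags and H3K4me1 summits of 16, 13, 13, 15 and 14 tags, and none of the 5 had H3K27ac in either arm.

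Mesenchymal transcription factor genes had a member more often than all genes, in counts that were not tested, and their spans were longer. Of all 21728 protein-coding genes 9.15% had a member in their span, and members were 3.94% of the NanogWT FLAG regions counted in such spans. Of 28 mesenchymal transcription factors 7 had a member, and 15 of their 173 NanogWT FLAG regions (8.67%) were members. The mean span of these genes was 153 kb, against 89.2 kb for all genes. Tcf4, an E protein of the basic helix-loop-helix family, had 4 members, Nfia and the osteoblast regulator Runx2 had 3 each, Nfib had 2, and Ebf2, Osr2 and Tbx15 had 1 each.

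The members at these genes were mostly intronic. At Tcf4 the FLAG summits were 23, 10, 8 and 10 tags high and those of H3K4me1 16, 17, 13 and 18, and the members with FLAG summits of 23 and 8 tags had H3K27ac in NanogWT alone, with 16 and 12 tags. At Nfia the FLAG summits were 9, 26 and 9 tags high and those of H3K4me1 13, 14 and 14, and the member with 26 tags had H3K27ac in NanogWT alone (12 tags). At Runx2 the FLAG summits were 14, 17 and 10 tags high and those of H3K4me1 16, 11 and 13, and the first member had H3K27ac in both arms, with 11 tags in NanogWT and 10 in NanogBiD. Of the 15 members at all genes of this list 3 lost H3K27ac, against 17.8% of all members, and none gained it.

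The highest share of genes with a member was that of the actin and contractile list, 7 of 23 or 30.4%, with a mean span of 90.3 kb and with 6.36% of their NanogWT FLAG regions being members. Among them were Vcl, which encodes vinculin and whose member lost H3K27ac, and Myh9, nonmuscle myosin, and 1 of the 7 members lost it. Hippo and TEAD genes had a member at 4 of 23 (Tead1, Lats2, Stk3 and Amotl1) and TGF-beta and BMP pathway genes at 5 of 36 (Smad3, Smad4, Smad7, Tgfbr2 and Bmp4). These were 17.4% and 13.9% of the genes, against 9.15% of all protein-coding genes. Members were 3.28% and 3.05% of the NanogWT FLAG regions of these lists, below the 3.94% over all genes. Extracellular matrix genes had a member at 4 of 32, including Fbn1 (fibrillin), whose member was the 1 of 4 that lost H3K27ac, and members were 2.5% of their NanogWT FLAG regions. AP-1 genes had none of 17, which allows a share of up to 17.6%, taking 3 counts as the limit for a count of 0. Epithelial genes had a member at 2 of 24 (Tjp1, with 2, and Grhl2) and pluripotency genes at 1 of 30. The lists differ in gene length and in the number of NANOG peaks, and they were not tested.

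The single pluripotency gene was Pou5f1, whose member at chr17:35500340-35503166, 5.19 kb upstream, was the only NanogWT FLAG region in its span. It had 15 tags for FLAG and 46 for H3K4me1, the tallest H3K4me1 summit of all members, at a score of only 54.9, whereas the 362 members with summits of 18 to 22 tags had a median score of 88.9. Both arms carry the OG2 reporter, which is driven by Pou5f1 sequence. The extent of that sequence was not checked, so it is not known whether it includes this member. If it does, reads of the reporter and of the native gene cannot be told apart here. No H3K27ac peak was found at this member in either arm.

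The highest density of members was found at Lep, which encodes leptin, a gene that was picked out after its values were seen. Within 53.7 kb it held 4 members out of 6 NanogWT FLAG regions, of which 1 was upstream and 3 were downstream of the gene, 12.2 to 23.2 kb from the nearer of its annotated start sites. FLAG summits were 7, 16, 13 and 7 tags high and H3K4me1 summits 12, 20, 20 and 17, in order along the chromosome. The pair in the middle shared an H3K4me1 peak and an H3K27ac peak of 26 tags. The 3 downstream members had H3K27ac in NanogWT alone, with 26, 26 and 16 tags, and the upstream member had none in either arm.

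As a check of the label, H3K27ac was found at the promoters of 9 of 10 fibroblast markers in both arms, including Col1a1 (20 tags in NanogWT and 24 in NanogBiD), Vim (49 and 50) and Thy1 (44 and 26), and not at Prrx1. Of 8 pluripotency markers none had it in NanogWT and 2 had it in NanogBiD, Tdgf1 (20 tags) and Sall4 (14 tags). Peaks per list ranged from 30859 (NanogWT BRG1) to 74782 (NanogBiD FLAG), with unknown sequencing depth. A difference in depth or antibody yield between arms cannot be told apart from a difference in occupancy, for any count of called peaks given here.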

How the data were processed

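Per the methods of the study and the labels, reads were trimmed with Trim Galore 0.6.4, aligned to mm10 with Bowtie2 2.4.5, filtered with SAMtools 1.16.1, and merged over replicates. The study's reporting summary gives at least 3 for all experiments, and the number merged into each of these lists was not stated separately. The authors called peaks with MACS 1.4.2 without a named control, and duplicates were reduced to 1 tag. The deposited peak lists give a score (−10 log10 p), and the deposited summit lists give a signal, the tag pileup at the summit. Neither was scaled to depth, which is unknown.

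Peaks were merged where they overlapped or touched, and marks were assigned by an overlap of at least 1 bp, the highest-scoring peak giving the height. Start sites and genes came from GENCODE vM21 and sequence from RefSeq GRCm38.p6 (the same build). Shares carry Wilson and differences Newcombe 95% intervals, for counting error only. Regions are not replicates, so no p-values are given. The members and gene lists were chosen with earlier results of these data known. Regions were named for the highest values of the lower of the FLAG and H3K4me1 scores (6) and for the highest H3K27ac scores among members that lost or gained it (3 each), and genes for having the most members (5) or, in a list, 3 or more. Of the first 6 regions, 1 is not reported here. Sequences were the 3 members with the highest such lower score and a match within 50 bp, with chromosome 18 left out. They were chosen for TEAD, AP-1 and OCT or SOX. The last set is not printed, since all 3 held SOX matches and the difference in SOX share from 1 kb away had an interval including 0. Python 3.11.15 with pandas 2.3.3 was used, and the classification, motif counts and intervals were tested on simulated data. Alternatives varied the score, height, list length, merging, peak extent, distances, promoter width and motif window.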

Additional observations from a re-analysis of the deposited data

How the results depend on the processing

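The score limit of 100, the 20000 highest-scoring peaks of each list and the height limit of 15 tags gave 1536, 526 and 1612 members in place of 2878, of which 280, 37 and 229 overlapped a member as reported. The share of members that lost H3K27ac became 19.4% with the 20000 highest-scoring peaks, 19.9% with the height limit, 13.1% with windows of 100 bp either side of each summit, and 20.3% when both lists of a target were held to equal length, an alternative added after the data had been seen. The gained share became 4.56%, 3.97%, 7.03% and 1.62% under these 4 settings, and 3.96% when an H3K27ac peak within 1 kb counted as present. The promoter share became 15.7% with the score limit, 11.6% with the highest-scoring peaks, 17.4% with the height limit, 16.2% with summit windows, 11.2% without any NanogBiD FLAG or H3K4me1 peak or BRG1 peak within 1 kb, and 8.13% for promoters of 1 kb. The NanogWT H3K27ac share of members minus that of regions that kept H3K4me1 became −13.0 points with the score limit and −17.5 with the height limit. TEAD matches became 9.24% with the height limit and 4.13% in windows of 25 bp, and AP-1 matches 2.05% in such windows. A narrower window holds fewer letters, and for the other changes the cause was not tested.

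The other 38 of 61 alternative values stayed within the interval, or within 1.5 times the count, as reported. Loss of H3K27ac outnumbered gain in all 11 settings. The share lost among members with NanogWT H3K27ac, 78.8% as reported, is not among these values and lay between 63.4% with the height limit and 81.8% with equal list lengths. It was 70.4% when an H3K27ac peak within 1 kb counted as present, 72.4% for summit windows, and 72.9% under the score limit as well as for the highest-scoring peaks. Among regions with NanogWT H3K27ac, members exceeded the class that kept H3K4me1 by 17.1 to 27.6 points. Their excess over the class without H3K4me1, 8.94 points as reported, changed sign to −0.14 points (−9.05 to 7.94) with the highest-scoring peaks and became 0.92 (−4.01 to 5.69) with summit windows and 4.18 (−1.18 to 9.73) with the 1 kb distance, and it rose to 11.5 (5.58 to 17.2) with the score limit and 15.5 (10.5 to 20.4) when an H3K27ac peak within 1 kb counted as present. No paired analysis was possible because replicates had been merged before deposit, leaving 1 library in every group. Unknown depth limits every statement on absent peaks.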
